A study of Mus musculus with 6 samples.

Results

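The genes described here are those of respiratory complex I (NADH:ubiquinone oxidoreductase) whose mouse symbol begins with Nduf. Of the 55401 genes in the deposited table, 51 carried such a symbol in GENCODE M21, and 46 of these were protein-coding and were taken as members. Every member had at least 10 counts in at least 3 libraries, and all 46 were tested. By function they comprised 36 nuclear subunits, 8 assembly factors (Ndufaf genes) and 2 genes that keep the name but lie outside the complex, Ndufa4 and Ndufa4l2. The other 5 symbols were 4 processed pseudogenes and Ndufb1-ps, which GENCODE M21 lists as noncoding and RefSeq as the subunit gene Ndufb1.

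The RNA came from F4/80+ cells, labelled as macrophages, sorted from mouse liver tumours that had grown for 14 days after Hepa 1-6 hepatoma cells were placed in the right liver lobe. Control tumours gave 3 libraries (genotype label WT Control). Tumours of Hepa 1-6 cells carrying a lentivirus that overexpresses Sms, the spermine synthase gene, gave the other 3, called Sms-OE here and Sms_OE in the plots. The injected tumour cells, not the macrophages, carried the virus. No mouse strain, age or sex and no promoter of the lentivirus is given, and nothing says whether each library was from 1 mouse or a pool. P-values therefore measure the spread between these libraries, which may be partly technical.

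Complex I takes electrons from NADH, passes them through a flavin and a chain of iron-sulfur clusters to ubiquinone, and pumps protons across the inner mitochondrial membrane. The catalytic core is built from nuclear subunits, which hold the flavin and the clusters, and from subunits encoded in mitochondrial DNA, which form the proton-pumping membrane arm. Accessory subunits surround that core, and assembly factors join the modules together but leave the finished enzyme. In macrophages the complex is known as a source of reactive oxygen species and as an enzyme whose use changes with activation state.

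Totals were 49833764 to 58154006 counts a library, so that 1 CPM (1 count in 1000000, here with the library size scaled by a TMM factor) stood for about 50 counts or more. Sms itself was at 26.0, 28.3 and 26.2 CPM in control and 32.9, 33.2 and 33.2 CPM in Sms-OE cells, a log2 fold change of 0.30 ± 0.09 (SE, adjusted p = 0.0382 in edgeR's quasi-likelihood test), and without any single library the adjusted p lay between 0.0719 and 0.122. Adgre1, the gene of the F4/80 antigen used for sorting, was at 334, 474 and 539 CPM in control and 521, 660 and 529 CPM in Sms-OE cells (adjusted p = 0.160). Libraries 2 and 3 of Sms-OE stood apart by their haemoglobin share, 0.485% and 0.512% of counts against 0.0225% in Sms-OE library 1 and at most 0.0172% in control. Hepatocyte markers summed to 451 to 629 CPM in control and 158 to 256 CPM in Sms-OE cells, and 10 of the 12 were lower, with a median log2 fold change of -2.82. Macrophage markers summed to 6578 to 6715 CPM in control and 6955 to 8092 CPM in Sms-OE cells. Of these 10 markers, Cd68 and C1qa were lower and Itgam and Cd14 higher, with a median log2 fold change of 0.05. Over all tested genes 14.3% were lower and 12.5% higher. Of the 9 hepatoma markers, Dlk1 and Igf2 were at 0 in every library, and of the 7 tested 2 were lower and 0 higher. The lower ones were Rhox5 (log2 fold change -3.79 ± 0.38, adjusted p = 0.000263) and Gpc3 (-1.33 ± 0.30, adjusted p = 0.00917). The hepatoma marker Afp was at 68.4, 55.2 and 67.3 CPM in control and 64.6, 63.2 and 46.3 CPM in Sms-OE cells (adjusted p = 0.517). Fewer cells of a type and less RNA per cell cannot be told apart in such bulk samples.

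Messenger RNA of complex I was lower in the cells from Sms-OE tumours throughout the enzyme. Of the 36 nuclear subunits, 31 were lower and none was higher at an adjusted p under 0.05 in edgeR's quasi-likelihood test, and all 36 log2 fold changes were below 0. Their median was -0.58, a level 1.5-fold lower, and they ranged from -1.08 (Ndufa12) to -0.28 (Ndufb11). Among the 8 Ndufaf assembly factors 6 were lower and none higher, with a median of -0.81 and a range from -1.47 (Ndufaf6) to 0.13 (Ndufaf7). For comparison, 14.3% of the 18277 genes tested were lower and 12.5% were higher (2615 and 2293 genes), with a median log2 fold change of 0.00.

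With library size alone as the scale, 1788 genes (9.78%) were lower and 2521 higher, and the subunit count was then 30 and the Ndufaf count 4. In 33 of 36 subunits every Sms-OE library lay below every control library in CPM, as it did in 6 of 8 Ndufaf genes and in 23.3% of all tested genes. No subunit or Ndufaf gene was higher by DESeq2's Wald test (15.2% of genes higher) or limma-voom (13.3%) either. At an unadjusted p under 0.05 in edgeR, 35 subunits were lower and 0 higher, and 6 Ndufaf genes lower and 0 higher. At that threshold 3673 of all 18277 tested genes were lower and 3325 higher. Without the haemoglobin-rich libraries 2 and 3 of Sms-OE, which leaves 1 library in that group, 13 subunits and 1 Ndufaf gene were lower, against 3.41% of genes, while all 36 subunits kept a log2 fold change below 0. The summed hepatocyte markers did not overlap between the groups either, and with their mean log2 CPM as a covariate in edgeR 0 of 18277 genes (0%) passed in either direction (741 lower and 770 higher at an unadjusted p under 0.05), so the level of hepatocyte RNA and the tumour genotype cannot be told apart here. In that fit 21 of 36 subunits had a log2 fold change below 0, and their median standard error was 0.37 against 0.12.

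**Figure D1:**
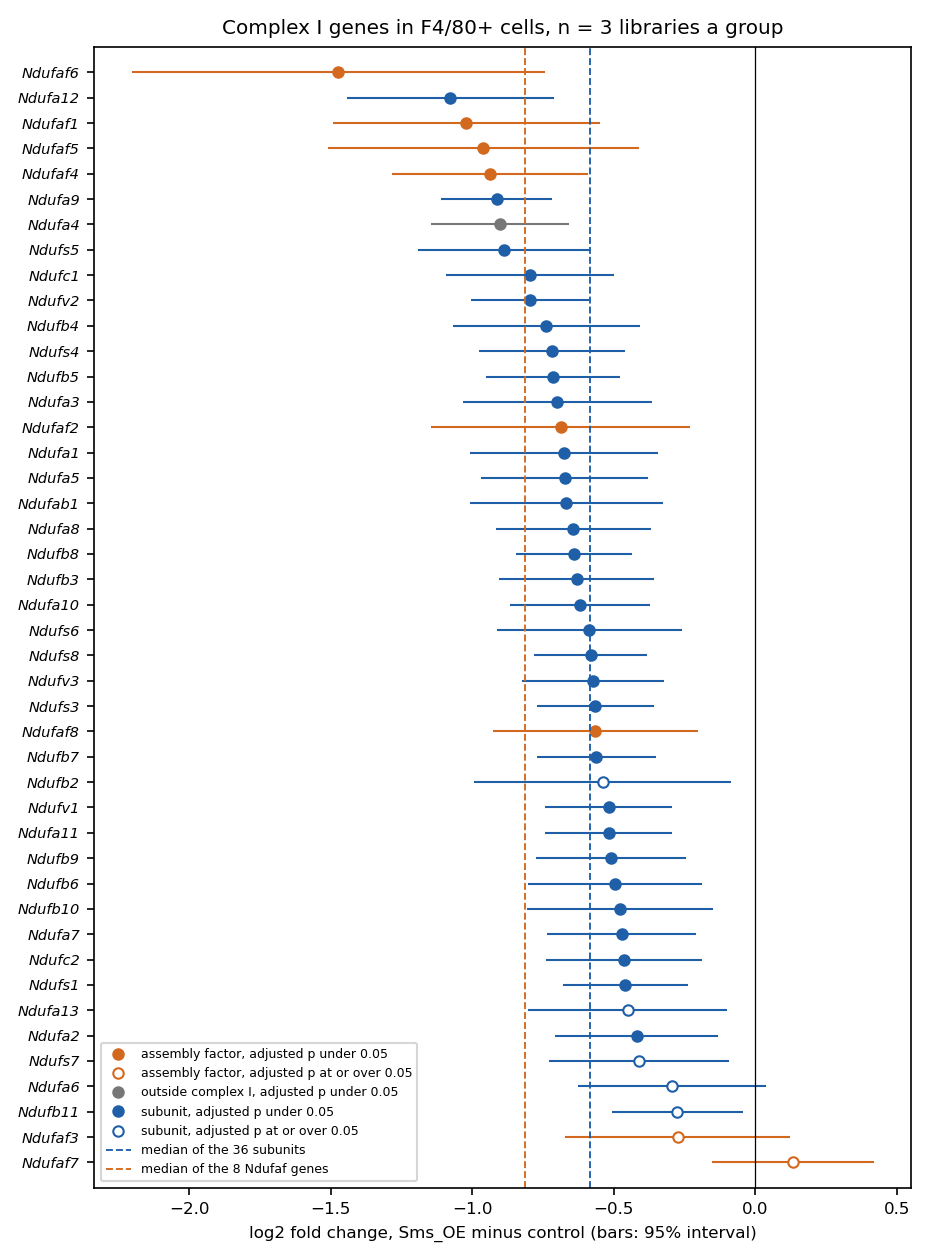
Log2 fold change (Sms_OE minus control, x axis) of 44 Nduf genes (y axis), with 95% intervals; filled points have an adjusted p under 0.05 in edgeR's quasi-likelihood test, and dashed lines mark the medians of the 36 subunits (-0.58) and the 8 Ndufaf genes (-0.81). The subunits plotted lie left of 0, and Ndufaf6 and Ndufaf7 mark the lower and upper ends; Ndufa4l2, whose interval runs from -2.07 to 2.62, is left out.

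Summed over the 36 subunits, the level was 1561, 1577 and 1720 CPM in control and 1094, 1148 and 988 CPM in Sms-OE cells. The lowest control library was thus above the highest Sms-OE library, and the means, 1619 ± 88 and 1077 ± 81 (SD, n = 3), differed 1.5-fold. The 8 Ndufaf genes summed to 66.7, 60.2 and 66.7 CPM in control and 46.4, 47.0 and 43.4 CPM in Sms-OE cells, means of 64.6 ± 3.8 and 45.6 ± 2.0 (SD, n = 3) that differed 1.42-fold. The subunit CPM per Ndufaf CPM was 23.4, 26.2 and 25.8 in control and 23.6, 24.4 and 22.8 in Sms-OE cells, ranges that overlap, and the log2 of this ratio differed by -0.09 between the group means. The 7 subunits encoded in mitochondrial DNA summed to 10619, 12730 and 16496 CPM in control and 5731, 4745 and 3942 CPM in Sms-OE cells, means that differed 2.76-fold. Within Sms-OE cells all 3 sums were lowest in library 3.

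**Figure D2:**
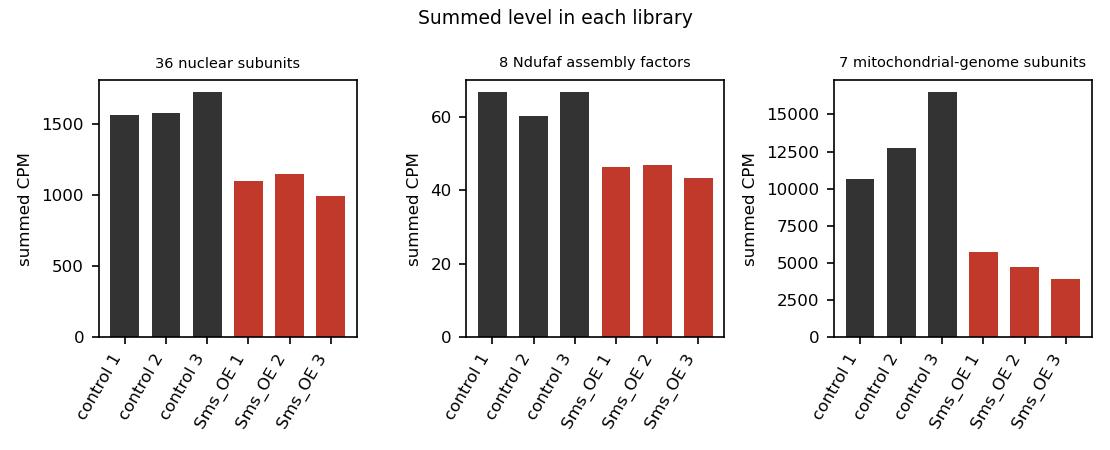
Summed CPM (y axis, from 0) of the 36 nuclear subunits, the 8 Ndufaf assembly factors and the 7 mitochondrially encoded subunits in each of the 6 libraries (x axis; dark bars control, red bars Sms_OE). In each panel the 3 Sms_OE bars are below the 3 control bars, by 1.5-fold, 1.42-fold and 2.76-fold between the group means.

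Promoters were read for the members because so many moved together. RefSeq (GRCm38.p6) gave a promoter for 40 of the 46 members (42 start sites), and the 250 bases before each start were searched on both strands for 7 short motifs. Below are those of Ndufa9, the subunit with the smallest p, of the paralogues Ndufa12 and Ndufaf2, and of Ndufaf7, the Ndufaf gene with a log2 fold change above 0. Capitals mark every match to a searched motif, GGGCGG (the SP/KLF box) or CCAAT (the NF-Y box), on either strand. The windows are chr6:126849145-126849394 (minus strand, Ndufa9), chr10:94198785-94199034 (plus strand, Ndufa12), chr13:108158626-108158875 (minus strand, Ndufaf2) and chr17:78936885-78937134 (plus strand, Ndufaf7).
Ndufa9: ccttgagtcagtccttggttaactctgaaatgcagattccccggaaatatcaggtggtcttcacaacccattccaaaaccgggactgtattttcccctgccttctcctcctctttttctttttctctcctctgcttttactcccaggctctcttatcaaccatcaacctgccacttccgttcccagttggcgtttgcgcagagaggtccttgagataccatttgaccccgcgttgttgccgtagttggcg
Ndufa12: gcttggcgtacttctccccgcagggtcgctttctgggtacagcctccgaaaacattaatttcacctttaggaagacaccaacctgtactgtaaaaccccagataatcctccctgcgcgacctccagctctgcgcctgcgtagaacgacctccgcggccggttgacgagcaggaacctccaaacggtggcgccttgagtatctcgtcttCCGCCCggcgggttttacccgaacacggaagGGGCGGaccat
Ndufaf2: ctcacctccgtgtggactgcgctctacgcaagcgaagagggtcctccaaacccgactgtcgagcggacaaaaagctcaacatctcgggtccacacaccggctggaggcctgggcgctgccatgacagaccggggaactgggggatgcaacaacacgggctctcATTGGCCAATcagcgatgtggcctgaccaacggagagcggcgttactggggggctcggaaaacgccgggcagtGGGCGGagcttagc
Ndufaf7: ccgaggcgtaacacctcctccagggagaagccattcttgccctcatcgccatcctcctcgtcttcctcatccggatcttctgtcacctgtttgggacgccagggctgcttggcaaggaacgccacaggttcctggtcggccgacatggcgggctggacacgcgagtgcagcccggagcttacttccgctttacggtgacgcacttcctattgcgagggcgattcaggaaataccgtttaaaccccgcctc

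Ndufa12 held 2 SP/KLF boxes, Ndufaf2 held 1 SP/KLF box and a pair of adjoining NF-Y boxes in opposite orientation, and Ndufa9 and Ndufaf7 held no match. The Ndufa12 window precedes the RefSeq start but lies inside the gene in GENCODE M21, where Ndufa12 begins at 94198720. Over all 42 member promoters, GGGCGG was found in 45.2% (32.7% of the 32851 promoters in the table), CCAAT in 33.3% (33.8%), and CCGGAAG, an ETS site, in 11.9% (6.91%). The NRF1 palindrome, GCGCA followed by its own reverse complement, was in 4.76% (0.782%), namely in Ndufaf4 and Ndufa11. CACGTG, the E-box, was in 7.14% (6.02%), while AAGATGGC (YY1) and TCAAGGTCA (ERR) were in none (1.56% and 0.387%). Member promoters were richer in G and C, with a median of 58.2% against 52.4%, and held a median of 17 CG dinucleotides against 6. The comparison promoters, of 27025 genes, were not limited to the 18277 genes tested here, whereas every member was tested. These matches describe letters in a window and were not read as binding sites.

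The members were spread over 17 chromosomes. Of the 46, 13 (28.3%) began within 1000 bases of a protein-coding gene that runs the opposite way, against 9.52% of the 14009 protein-coding genes tested. Of the 11 such partners that were tested, 1 was lower, Rps28 beside Ndufa7 (-0.71 ± 0.14), and 1 was higher, Fam126b beside Ndufb3 (0.75 ± 0.16), both log2 fold changes with SE, against 14.3% and 12.5% of all tested genes. Rps28 encodes a protein of the small cytosolic ribosomal subunit. Of the 46 members, 18 overlapped a gene on the other strand and 6 a gene on their own strand, sets that share members with each other and with the 13, and their counts are uncertain, since it is not stated whether strand was used in counting.

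The 7 nuclear core subunits carry the redox chain, and 6 of them were lower (median log2 fold change -0.57). Ndufv2, a subunit with a 2-iron cluster in the NADH-oxidising tip, was at 52.4, 53.4 and 60.7 CPM in control and 32.6, 32.4 and 30.9 CPM in Sms-OE cells (-0.80 ± 0.09, adjusted p = 0.000514). It had the most negative value of the core, and its Sms-OE libraries lay close together. Ndufv1, its partner that binds the flavin and NADH, was at 68.1, 62.9 and 55.1 CPM in control and 44.4, 45.1 and 40.5 CPM in Sms-OE cells (-0.52 ± 0.10, adjusted p = 0.00498).

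Ndufs1, the large subunit that carries clusters onward from the tip, was at 57.9, 61.3 and 53.0 CPM in control and 44.9, 42.4 and 37.9 CPM in Sms-OE cells (-0.46 ± 0.10, adjusted p = 0.00802). Ndufs8, which holds clusters between the tip and the quinone site, was at 42.5, 44.0 and 46.6 CPM in control and 29.9, 28.7 and 30.3 CPM in Sms-OE cells (-0.58 ± 0.09, adjusted p = 0.00173). Ndufs3, a core subunit without a cluster of its own, was at 41.2, 42.8 and 39.9 CPM in control and 29.6, 27.3 and 26.9 CPM in Sms-OE cells (-0.57 ± 0.09, adjusted p = 0.00226). In Ndufv1, Ndufv2, Ndufs1, Ndufs3 and Ndufs8 no Sms-OE library reached the lowest control library. Ndufs7, which holds the last cluster before ubiquinone, was at 32.8, 30.8 and 35.98 CPM in control and 21.02, 30.5 and 23.2 CPM in Sms-OE cells (-0.41 ± 0.14, adjusted p = 0.0567). Its Sms-OE library 2 lay just under the lowest control library, and without Sms-OE library 2 the adjusted p was 0.0102 and the log2 fold change -0.59. Among the fits without a single library the adjusted p of Ndufs7 reached 0.160.

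In the tip of the hydrophilic arm, which oxidises NADH, 6 of 7 accessory subunits were lower (median log2 fold change -0.58). Ndufa12, a late addition to the arm, was at 21.1, 15.7 and 15.6 CPM in control and 9.41, 8.01 and 7.42 CPM in Sms-OE cells, 2.11-fold lower (-1.08 ± 0.16, adjusted p = 0.00164). The groups did not overlap, and its log2 fold change was -0.90 (adjusted p = 0.0596) without Sms-OE libraries 2 and 3. Ndufs4, a subunit whose loss causes a Leigh-like encephalopathy in mice, fell from 43.6 to 47.6 CPM in control to 23.6 to 31.4 CPM in Sms-OE cells. Ndufa6, which anchors an acyl carrier protein to the arm, was at 40.4, 49.9 and 60.3 CPM in control and 37.0, 47.4 and 38.4 CPM in Sms-OE cells, and the groups overlapped (-0.29 ± 0.15, adjusted p = 0.178).

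Both accessory subunits assigned to the quinone module were lower (median log2 fold change -0.79). Ndufa9, which lies at the junction of the hydrophilic and membrane arms, was at 75.2, 70.0 and 76.0 CPM in control and 42.1, 37.4 and 38.0 CPM in Sms-OE cells, 1.88-fold lower (-0.91 ± 0.09, adjusted p = 0.000224). This was the smallest adjusted p among the 46 members. Ndufa5, a small subunit of the same arm, was at 20.0, 22.8 and 20.4 CPM in control and 14.8, 13.3 and 11.5 CPM in Sms-OE cells (-0.67 ± 0.13, adjusted p = 0.00523).

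In the membrane arm, 8 of 9 accessory subunits near the junction (median log2 fold change -0.64) and 8 of 10 at the distal end (median -0.55) were lower. Ndufs5, which faces the intermembrane space, was at 29.7, 30.7 and 40.7 CPM in control and 17.3, 19.6 and 17.7 CPM in Sms-OE cells (-0.89 ± 0.14, adjusted p = 0.00171). Ndufa13, also known as GRIM-19, was at 43.5, 46.7 and 62.0 CPM in control and 33.1, 44.8 and 33.3 CPM in Sms-OE cells, overlapping through Sms-OE library 2 (-0.45 ± 0.16, adjusted p = 0.0583). It passed without that library (-0.62, adjusted p = 0.0227) and without control library 1 (-0.56, adjusted p = 0.0471). Among the fits without a single library the adjusted p of Ndufa13 reached 0.198. Distally, Ndufb4 had the most negative value and fell from 21.8, 24.5 and 28.6 CPM in control to 16.6, 15.8 and 12.4 CPM in Sms-OE cells (-0.74 ± 0.15, adjusted p = 0.00588).

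Ndufb11, an X-linked subunit with a single membrane span, had the least negative value of the 36, with 45.9, 51.2 and 54.4 CPM in control and 39.9, 46.1 and 39.1 CPM in Sms-OE cells (-0.28 ± 0.10, adjusted p = 0.0752). Among the fits without a single library its adjusted p ran from 0.0385 to 0.194. Sms-OE library 2 was inside the control range, and without it the value was -0.36 (adjusted p = 0.0385). The same library was the highest of its group in Ndufb2 (11.2, 14.0 and 7.38 CPM, against 15.5, 15.3 and 16.7 CPM in control), the remaining subunit that did not pass (-0.54 ± 0.20, adjusted p = 0.0767). Leaving Sms-OE library 2 out raised the number of lower subunits to 35, against 11.7% of genes. Leaving out control library 1, 2 or 3 gave 29, 29 and 25 (9.52%, 8.78% and 9.63% of genes), and leaving out Sms-OE library 1 or 3 gave 27 and 25 (13% and 9.22%). Ndufab1, the mitochondrial acyl carrier protein, which also serves fatty acid synthesis and iron-sulfur cluster assembly, was at 21.6, 18.98 and 26.5 CPM in control and 13.2, 16.1 and 12.8 CPM in Sms-OE cells (-0.67 ± 0.15, adjusted p = 0.0104).

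Among the members, the Ndufaf assembly factors were the group with the widest range, from the most negative log2 fold change of all members to the highest value among those linked to the complex. Standard errors of the Ndufaf genes, from 0.13 (Ndufaf7) to 0.33 (Ndufaf6), were above the subunit median of 0.12. The difference in range was not tested. Ndufaf6, which acts early on the quinone module, was at 3.19, 3.53 and 3.73 CPM in control and 1.86, 1.104 and 0.792 CPM in Sms-OE cells, 2.78-fold lower (-1.47 ± 0.33, adjusted p = 0.00927). Sms-OE library 1 was the highest of its group, and without the haemoglobin-rich libraries 2 and 3 the log2 fold change was -0.91 (adjusted p = 0.141). Ndufaf1, part of the intermediate assembly complex of the membrane arm, was at 7.21, 6.59 and 8.02 CPM in control and 4.38, 2.81 and 3.56 CPM in Sms-OE cells (-1.02 ± 0.21, adjusted p = 0.00685). It likewise had its highest Sms-OE value in library 1, and without libraries 2 and 3 stood at -0.74 (adjusted p = 0.120).

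Ndufaf3 and Ndufaf4 bind each other on the early quinone module, yet only the latter passed the test. Ndufaf4 was at 10.03, 9.33 and 10.7 CPM in control and 5.39, 5.34 and 4.97 CPM in Sms-OE cells, 1.91-fold lower (-0.94 ± 0.16, adjusted p = 0.00237), with little spread in either group. Ndufaf3 was at 9.10, 7.29 and 8.87 CPM in control and 7.397, 5.80 and 7.67 CPM in Sms-OE cells, overlapping groups (-0.28 ± 0.18, adjusted p = 0.291). The difference between these partners was not tested. Ndufaf5, which hydroxylates an arginine of Ndufs7, was at 6.64, 5.26 and 7.04 CPM in control and 3.87, 3.61 and 2.24 CPM in Sms-OE cells (-0.96 ± 0.25, adjusted p = 0.0175). Its call was lost without control library 1 (adjusted p = 0.0523) and without control library 3 (0.0598). Ndufaf8, which works with Ndufaf5, was at 9.13, 8.99 and 8.54 CPM in control and 5.39, 6.75 and 5.89 CPM in Sms-OE cells (-0.57 ± 0.16, adjusted p = 0.0278), and passed in only 1 of the 6 fits that left out a library, the one without Sms-OE library 2 (adjusted p 0.0256 to 0.0842).

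Ndufaf7 was the only Ndufaf gene with a log2 fold change above 0. It encodes a mitochondrial arginine methyltransferase that acts early in assembly, and was at 14.2, 13.8 and 14.8 CPM in control and 14.4, 17.7 and 14.7 CPM in Sms-OE cells (0.13 ± 0.13, 95% interval -0.15 to 0.42, adjusted p = 0.493). Sms-OE library 2 held the highest value and the remaining Sms-OE libraries lay inside the control range. Against the summed other 7 Ndufaf genes, its log2 ratio was -1.89, -1.75 and -1.82 in control and -1.15, -0.72 and -0.96 in Sms-OE cells, a difference of 0.87 without overlap (two-sided exact permutation p = 0.1, the smallest that 3 against 3 libraries allows). This ratio was chosen after the values had been seen. Cebpz, the gene that shares the promoter region of Ndufaf7 and encodes CCAAT/enhancer binding protein zeta, averaged 57.6 CPM in control and 68.3 CPM in Sms-OE cells (0.25 ± 0.10, adjusted p = 0.0881). It passed with library size alone as the scale (0.31, adjusted p = 0.0355), and its result was unchanged in the other 19 alternatives. Without any single library the adjusted p of Cebpz lay between 0.0753 and 0.273.

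Ndufaf2 is a paralogue of the subunit Ndufa12 and holds its place in the growing complex until Ndufa12 replaces it. It was at 7.21, 5.46 and 5.08 CPM in control and 3.68, 3.85 and 3.50 CPM in Sms-OE cells (-0.69 ± 0.21, adjusted p = 0.0331). The call was lost in each fit that left out a single library other than control 3, with adjusted p between 0.0533 and 0.129, and with library size alone as the scale (0.0673). The log2 ratio of Ndufa12 to Ndufaf2 was 1.55, 1.53 and 1.62 in control and 1.35, 1.06 and 1.09 in Sms-OE cells, a difference of -0.40. All Sms-OE ratios were below all control ratios (two-sided exact permutation p = 0.1, the smallest this design allows).

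**Figure D3:**
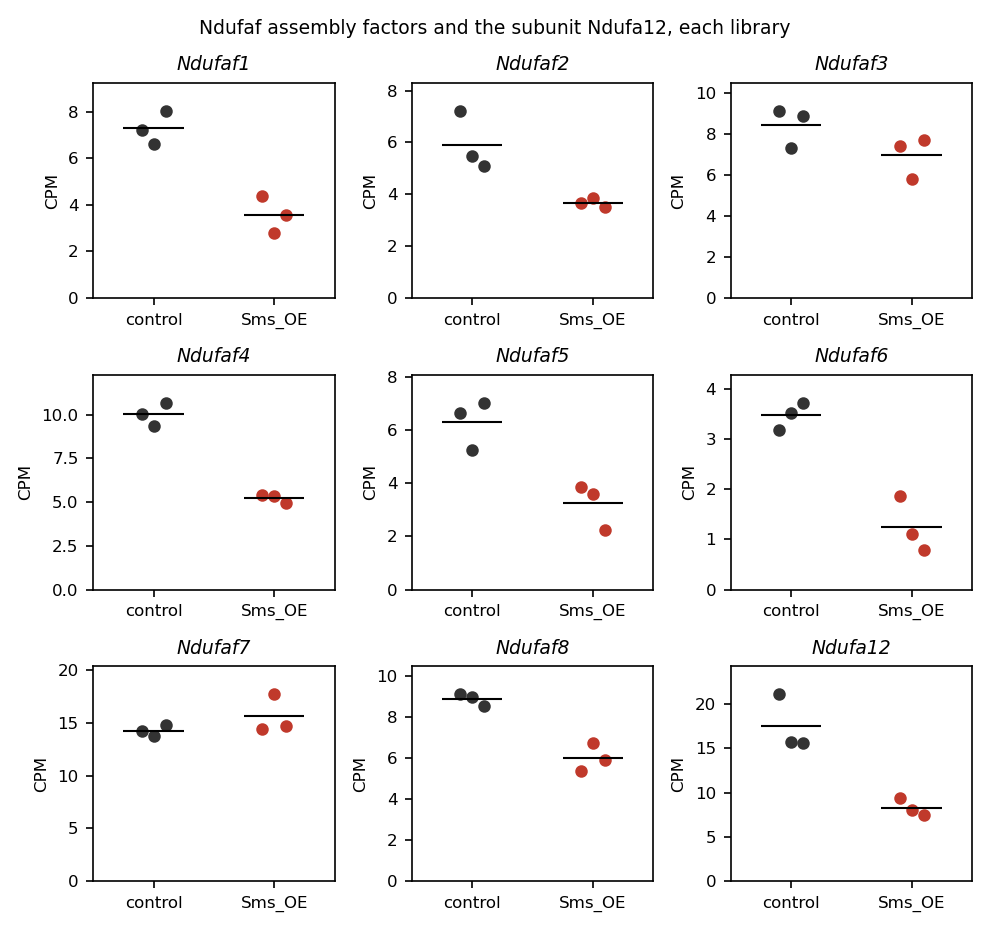
CPM (y axis, from 0) of the 8 Ndufaf assembly factors and of the subunit Ndufa12 in each library (points) of control and Sms_OE (x axis), with lines at the group means. The 3 Sms_OE points lie below the 3 control points in 7 of the 9 panels, and in Ndufaf3 and Ndufaf7 they overlap.

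The 2 genes outside the complex differed from each other. Ndufa4, named as a complex I subunit and now assigned to complex IV (cytochrome c oxidase), was at 57.7, 59.2 and 74.2 CPM in control and 35.0, 33.2 and 34.0 CPM in Sms-OE cells, 1.87-fold lower (-0.90 ± 0.11, adjusted p = 0.000591). Ndufa4l2, its relative that is induced in low oxygen, was nearly absent, at 0.134, 0.645 and 0.333 CPM in control and 0.702, 0.642 and 0 CPM in Sms-OE cells, and its direction was not measurable (0.27 ± 1.06, adjusted p = 0.877). Counting both among the subunits gave 32 of 38 lower. Ndufb1-ps, the row that RefSeq names Ndufb1, was at 35.0, 36.5 and 46.7 CPM in control and 25.8, 32.1 and 21.04 CPM in Sms-OE cells (-0.58 ± 0.16, adjusted p = 0.0252). Its value was close to the subunit median, and the call was lost without control library 2 or 3 or Sms-OE library 1 or 3 (adjusted p 0.0516 to 0.0906).

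Levels of different genes were compared only after division by transcript length (counts per base, scaled to the same sum in every library). On that scale the subunits had control means from 6.41 to 192 with a median of 79.2, and the Ndufaf genes from 4.88 to 20.2 with a median of 9.82, so that all subunits except Ndufb2 and Ndufab1 exceeded every assembly factor. The highest were Ndufb8 at 192 ± 19 and Ndufb7 at 182 ± 3.8 (SD, n = 3), distal membrane subunits whose levels did not differ beyond their spread. Ndufb2 and Ndufab1, the lowest at 6.41 ± 0.39 and 11.3 ± 1.3, were scaled by long annotated transcripts of 4371 and 3479 bases, which makes their levels uncertain. On the same scale 24 of 36 subunits and 6 of 8 Ndufaf genes had all Sms-OE libraries below all control libraries, against 9.54% of genes, and Ndufaf7 had all of them above, against 31.6% of genes. The median subunit was 1.27-fold lower on it. Each library sums to the same total on this scale, and it has no further factor between groups.

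**Figure D4:**
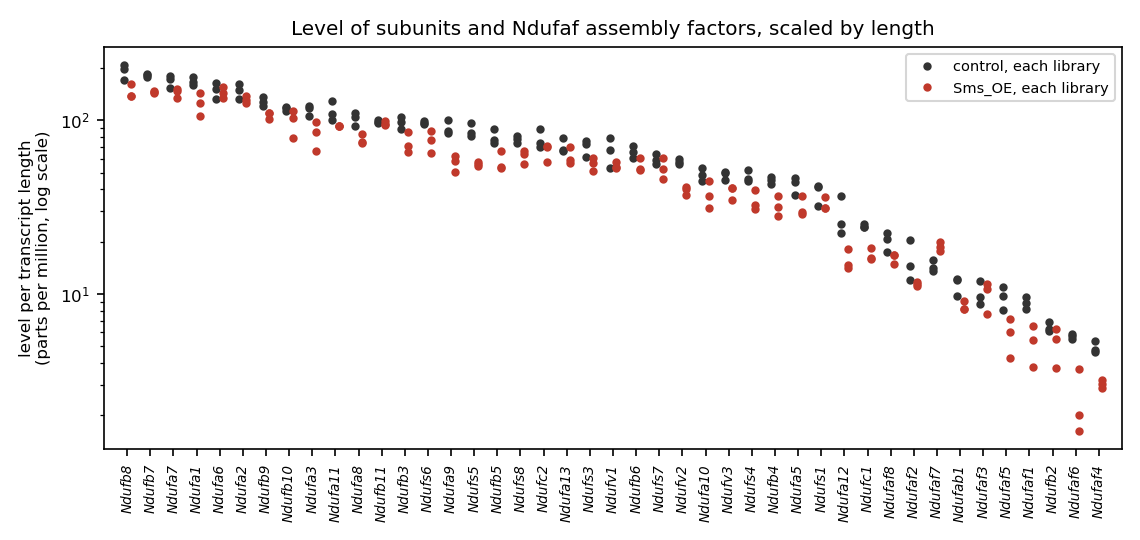
Level per transcript length (y axis, scaled to the same sum in every library, log scale) of 35 subunits and the 8 Ndufaf genes (x axis, in order of the control mean), 1 point a library, dark for control and red for Sms_OE. Control means run from 192 (Ndufb8) to 4.88 (Ndufaf4), and the Ndufaf genes cluster at the right.

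Complex I transcripts are short, and short transcripts as a class were lower in these data. The median length was 939.5 bases for subunits, 1308.5 for Ndufaf genes and 2508 for all tested genes. Over 4 equal groups of genes by length, the median log2 fold change of all tested genes was -0.17, -0.09, 0.01 and 0.19 from shortest to longest, and 19.8%, 18.3%, 12.3% and 6.93% of them were lower. Without a filter on low counts the shortest group had a median of 0.039. Within the shortest group (up to 1405 bases) 22 of 26 subunits were lower with a median of -0.57, and in the next group 7 of 7 with a median of -0.67. Across the 36 subunits themselves the log2 fold change had a Pearson r of -0.17 and a Spearman rho of -0.21 with log2 length, and of 0.40 and 0.48 with GC content; these are descriptions across genes, which are not independent replicates.

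When a length and GC trend was removed from each library by offsets in edgeR's quasi-likelihood test, 18 of 36 subunits and 3 of 8 Ndufaf genes were lower, against 9.66% of all genes. The median log2 fold change was -0.32 for subunits and -0.46 for Ndufaf genes, and 33 of 36 subunits stayed below 0. Calls kept under the offsets included Ndufa9 (-0.62, adjusted p = 0.00105), Ndufv2 (-0.53, adjusted p = 0.00180), Ndufa12 (-0.76, adjusted p = 0.0124), Ndufaf4 (-0.87, adjusted p = 0.00381), Ndufaf6 (-1.14, adjusted p = 0.0288) and Ndufaf1 (-0.73, adjusted p = 0.0318). Ndufaf2, Ndufaf5 and Ndufaf8, Ndufs3, Ndufa5 and 11 other subunits lost the call. Ndufaf7 was at 0.37 ± 0.12 under the offsets (adjusted p = 0.0540). Ndufb11, Ndufa2 and Ndufa6, at 0.071, 0.0011 and 0.095, were the subunits no longer below 0.

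**Figure D5:**
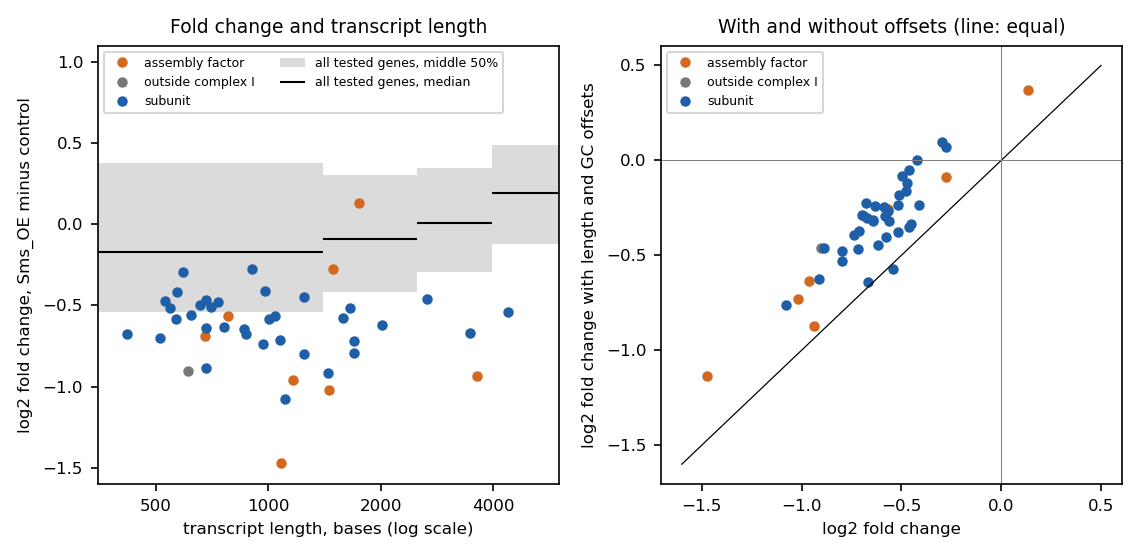
Left, log2 fold change (y axis) against transcript length (x axis, log scale) of 44 members (points), with the median (lines) and middle 50% (grey) of all tested genes in 4 length groups. Right, the members' log2 fold change without (x axis) and with (y axis) offsets for length and GC, with a line of equality: most points lie above the line, and the subunit median moves from -0.58 to -0.32.

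The mitochondrially encoded subunits, which build the proton channels, were lower in 7 of 7 cases, with a median log2 fold change of -1.47 and a range from -1.78 to -0.90 that overlaps that of the nuclear subunits. mt-Nd4, a large antiporter-like subunit, was at 3283, 3970 and 5046 CPM in control and 1670, 1335 and 1144 CPM in Sms-OE cells (-1.57 ± 0.18, adjusted p = 0.000503). mt-Nd2, another antiporter-like subunit, stood at -1.76 ± 0.20 and mt-Nd4l at -1.47 ± 0.19. mt-Nd6, the member encoded on the other strand of mitochondrial DNA, was at 270, 336 and 412 CPM in control and 167, 161 and 134 CPM in Sms-OE cells (-1.14 ± 0.15, adjusted p = 0.000820). Mitochondrial transcripts in all took 4.99%, 5.78% and 7.13% of counts in control and 3.12%, 2.42% and 2.15% in Sms-OE cells. The difference between nuclear and mitochondrial subunits was not tested, and the libraries were made by oligo(dT) selection, which recovers mitochondrial transcripts unevenly.

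Assembly factors of complex I with other names had 5 of 13 lower and none higher in edgeR, with a median of -0.46, beside 14.3% and 12.5% of all tested genes. DESeq2's Wald test gave 6 and 0, beside 15.5% and 15.2% of genes, and limma-voom 5 and 0, beside 15% and 13.3%. Dmac1, a factor of the distal membrane arm, fell from 17.5, 17.2 and 20.1 to 10.7, 13.0 and 10.8 CPM (-0.67 ± 0.14, adjusted p = 0.00601), and Tmem126b, of the intermediate assembly complex with Ndufaf1, from 9.03, 9.11 and 9.27 to 5.42, 5.50 and 5.51 CPM (-0.74 ± 0.15, adjusted p = 0.00646). Timmdc1, which joins the membrane modules, stood at -0.65 ± 0.17 (adjusted p = 0.0161), and lost the call without control library 3 (0.0618) or Sms-OE library 3 (0.0596). Tmem70, which also serves ATP synthase assembly, stood at -0.46 ± 0.12 (adjusted p = 0.0194), and lost it without control library 1 or 3 or Sms-OE library 3 (adjusted p 0.0554 to 0.0673). The count was 3 without control library 1, 2 without control library 3 and 3 without Sms-OE library 3.

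Among 14 genes of iron-sulfur cluster assembly, which supplies the clusters of the complex, 4 were lower and 1 was higher (median log2 fold change -0.31), beside 14.3% and 12.5% of all tested genes. Nfu1, a carrier that delivers clusters to complex I among others, was at 35.8, 40.4 and 44.7 CPM in control and 21.9, 23.6 and 19.2 CPM in Sms-OE cells (-0.90 ± 0.12, adjusted p = 0.000921). Isca1, which works in the same late step, went the other way, from 62.9, 64.0 and 65.3 to 95.3, 121 and 108 CPM (0.75 ± 0.10, adjusted p = 0.000797). Hspa9, the chaperone that hands clusters on, stood at -0.45 ± 0.10 (adjusted p = 0.00924), and Isca2, the partner of Isca1, at -0.52 ± 0.13 (adjusted p = 0.0141, and 0.0671 without control library 2).

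Of 12 tested regulators of mitochondrial gene expression, 3 were lower and 1 was higher, with a median of 0.00, beside 14.3% and 12.5% of all tested genes. The lower count was 1 without control library 2 and 2 without any other single library, and the higher count was 2 without Sms-OE library 1. Ppargc1b, a coactivator of mitochondrial genes, was at 13.5, 13.7 and 7.85 CPM in control and 6.30, 5.58 and 6.57 CPM in Sms-OE cells (-0.93 ± 0.22, adjusted p = 0.0119, and 0.0585 without control library 2). Tfam, which packages and transcribes mitochondrial DNA, fell from 20.0, 18.1 and 19.6 to 13.6, 14.3 and 13.1 CPM (-0.49 ± 0.12, adjusted p = 0.0117). Tfb1m, which methylates mitochondrial ribosomal RNA, stood at -0.69 ± 0.21 (adjusted p = 0.0379), and lost the call in each fit without a single library (0.0533 to 0.105). The transcription factor gene Yy1 was higher, at 77.0, 77.0 and 73.2 CPM in control and 96.6, 102.6 and 107.0 CPM in Sms-OE cells (0.43 ± 0.08, adjusted p = 0.00418). Ppargc1a was below the filter.

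Inner membrane scaffold and protease genes, whose products hold and clear complex I subunits, had 6 of 11 lower and 1 higher (median -0.42), beside the same 14.3% and 12.5%. The prohibitin genes Phb and Phb2 fell together, Phb from 59.8, 60.9 and 59.8 to 35.5, 35.1 and 34.6 CPM (-0.78 ± 0.08, adjusted p = 0.000305) and Phb2 by 0.64 ± 0.08 on the log2 scale (adjusted p = 0.000790). Stoml2, a relative of the prohibitins, stood at -0.67 ± 0.10 (adjusted p = 0.00166) and the matrix protease subunit Clpp at -0.63 ± 0.14 (adjusted p = 0.0102, and 0.0556 without control library 2). Afg3l2, a protease subunit of the inner membrane, was the 1 that rose, and was named after its value was seen (0.33 ± 0.10, adjusted p = 0.0356). Its call was lost without control library 2 or 3 or Sms-OE library 1 or 3 (0.0708 to 0.163).

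The fall was not particular to complex I. Nuclear subunit genes of complex II were lower in 4 of 4 cases (median log2 fold change -0.72), of complex III in 9 of 9 (-0.65), of complex IV in 12 of 15 (-0.65) and of complex V in 16 of 17 (-0.72). Mitochondrial ribosomal protein genes were lower in 62 of 78 cases, with a median of -0.58. Beside these counts, 14.3% of all tested genes were lower. The medians of these 5 lists, from -0.72 to -0.58, stand beside -0.58 for the complex I subunits, and no difference between the groups was tested. With offsets for length and GC, 4 of 4, 7 of 9, 8 of 15, 12 of 17 and 28 of 78 were lower, in the same order, against 9.66% of all genes.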

How the data were processed

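RNA-seq of 3 control and 3 Sms-OE libraries was analysed. Libraries were made from 2 µg of total RNA by oligo(dT) selection with dUTP marking of the strand, per the labels' protocols. StringTie 2.1.6, HISAT2 2.2.1, cutadapt 1.9, DESeq2 and FastQC 0.11.9 are named in the submitters' processing notes. Genome build, annotation and strand setting: not given in the sources used here. Values were estimated counts, whole numbers that the authors deposited without normalization, and needed no rounding. Symbols, types, positions and transcript lengths came from GENCODE M21 (GRCm38) by Ensembl identifier (55141 of 55401 rows matched; unmatched rows took no more than 0.0125% of counts), and promoters from RefSeq. Groups came from the sample titles.

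The test was edgeR 4.0.16 in R 4.3.3: filterByExpr, TMM factors, robust quasi-likelihood fit, Benjamini-Hochberg adjustment over 18277 genes, threshold 0.05. CPM use TMM-scaled library sizes. Alternatives (20) changed scaling, filter, tool (DESeq2 1.42.0, limma-voom 3.58.1), libraries, replicate block, covariate and offsets for length and GC, the last by splines with 4 degrees of freedom. For ratios and 15 library measures an exact permutation test (two-sided, 20 assignments) was used, which cannot give a p below 0.1. The smallest adjusted p over the library measures was 0.167, so none passed. Simulated counts for 17716 genes with 200 changed gave 16%, 66% and 92% of changes of 0.5, 1 and 2 log2 units recovered, and 6.86% of calls false.

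The members and lists were chosen with earlier results of these data known. Any member could be named, and 1 subunit, kept in all counts, medians and sums, is not reported here by itself; values in every library were given for the other core subunits, the Ndufaf genes, Ndufa12, Ndufa4, Ndufa4l2, Ndufab1 and the extremes of each accessory module. Of each other list up to 4 members past the threshold were named by smallest p, some of them by log2 fold change alone. Marker lists of neutrophils (3305 to 6112 CPM in control, 2249 to 4124 CPM in Sms-OE), T and NK cells (358 to 539, 412 to 577), B and plasma cells (26.1 to 27.2, 24.4 to 31.8), dendritic cells (724 to 896, 555 to 609), endothelium (139 to 156, 115 to 157), stellate cells and fibroblasts (75.7 to 94.9, 107 to 148), erythroid cells (43.2 to 189, 216 to 5050) and hepatoma (122 to 157, 110 to 152) were summed in CPM in the same way. Their part in the results was not tested.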

Additional observations from a re-analysis of the deposited data

How the results depend on the processing

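Scaling, filters, tools and removal of mitochondrial and haemoglobin genes left 29 to 34 subunits and 4 to 6 Ndufaf genes lower. The share of all tested genes that were lower ran from 8.75% to 17.6% in these fits. With library size alone the other-named assembly factors had 3 lower and the biogenesis regulators 2 higher, against 9.78% and 13.8% of all tested genes. Without a filter on low counts the scaffold and protease list had 0 higher, and the median log2 fold change of the shortest length group, -0.17, became 0.039, while a CPM of at least 1 in 3 libraries made it -0.28.

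Offsets for length and GC left 18 subunits (median -0.32), 3 Ndufaf genes (median -0.46), 2 other-named factors and 2 iron-sulfur genes lower and 2 regulators higher, and turned the shortest length group to 0.15, Ndufb11 to 0.071, Ndufa2 to 0.0011 and Ndufa6 to 0.10. With these offsets 9.66% of all tested genes were lower and 11.5% higher. With the replicate block the subunit count was 30 and the Ndufaf count stayed at 6, against 13.2% of all tested genes lower. Replicate numbers did not pair the libraries (correlations of deviations 0.0646, 0.0196 and -0.0075). Block and offsets together left 16 subunits (median -0.32), 3 Ndufaf genes (median -0.46), 2 other-named factors and 2 iron-sulfur genes lower and 2 regulators higher, with the shortest length group at 0.14, Ndufb11 at 0.071, Ndufa2 at 0.0045 and Ndufa6 at 0.10. In that fit 10% of all tested genes were lower and 11.8% higher. For Ndufa4l2 the log2 fold change was -1.47 with limma-voom, -0.20 with the block, -0.030 with block and offsets, and -0.21 to 0.93 without single libraries (-0.21 without Sms-OE 1, -0.09 without Sms-OE 2, -0.14 without control 1).

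With hepatocyte markers as a covariate 0 genes passed in any list or over all genes, lower or higher. The medians were -0.079 for subunits, -0.54 for Ndufaf genes and 0.21 for the shortest length group. Turned values were Ndufaf6 0.062, Ndufaf5 0.18, Ndufb4 0.40, Ndufb3 0.056, Ndufb2 0.56, Ndufb9 0.29, Ndufb6 0.078, Ndufb11 0.25, Ndufs6 0.30, Ndufv3 0.012, Ndufa7 0.26, Ndufa2 0.54, Ndufa6 0.74, Ndufa3 0.15, Ndufa1 0.60, Ndufa13 0.65, Ndufab1 0.12, Ndufb1-ps 0.68, Timmdc1 0.43, Tfb1m 0.021, mt-Nd2 0.061, mt-Nd4l 0.048, mt-Nd6 0.21, Rps28 0.32 and Afg3l2 -0.082, all with adjusted p above 0.05.

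Leaving out each library in turn gave 25 to 35 subunits and 3 to 5 Ndufaf genes lower, the 3 without control library 1. It also gave 2 to 5 other-named factors, 1 to 2 regulators lower and 1 to 2 higher, 0 to 1 scaffold or protease genes higher, and 1684 to 2473 genes lower and 1366 to 2015 higher in all. The lowest of these totals came without control library 2, and 1498 were higher without control library 3. Leaving out Sms-OE libraries 2 and 3, an alternative chosen after seeing the data in which the remaining library is assumed to vary like the others, left 13 subunits, 1 Ndufaf gene, 1 other-named factor, 1 iron-sulfur gene, 0 regulators and 3 scaffold or protease genes lower, 0 regulators and 0 scaffold or protease genes higher, and 694 genes lower and 690 higher. Of the 38 members called with all libraries, 14 kept the call. For offsets, covariate and left-out libraries the cause was not tested. Changes of 0.5 log2 units were mostly missed in the simulation, where only 200 genes were changed. In the data 2615 genes were lower and 2293 higher, which makes the adjusted threshold less strict, so that recovery rate does not carry over to them. Ndufs1, at -0.46, was called here. Ndufa4l2, at 1 CPM or less, gave no usable direction.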
